A study of Mus musculus with 18 samples.

Results

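The nuclear-encoded respiratory chain genes of C2C12 myotubes were followed across 6 treatment groups. Members were the protein-coding genes whose symbols begin with Nduf followed by a, b, c, s or v, with Uqcr, with Cox followed by a digit from 4 to 8, or with Atp5, together with Sdha, Sdhb, Sdhc and Sdhd. Of 98 such genes in the count table, 94 had at least 10 counts over all libraries and were tested among 21772 genes. They comprised 37 subunits of complex I, 8 complex I assembly factors (the Ndufaf genes), 4 subunits of complex II, 8 of complex III, 18 of complex IV and 17 of complex V, besides Cox7a2l, a supercomplex assembly factor, and Atp5if1, the inhibitor of complex V. The 4 genes below the count minimum were Cox4i2 with 7 counts in total, and Cox8c, Ndufb11b and a second gene identifier named Atp5po, each with 0 counts.

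The cells were C2C12, a mouse myoblast line that fuses into myotubes in low-serum medium. Confluent myoblasts of every group were transfected with pooled siRNAs, which were non-targeting (siNtc), directed at Erk3 (siErk3, gene symbol Mapk6) or directed at Mk5 (siMk5, gene symbol Mapkapk5). After 6 days of differentiation each received serum-free medium for 16 h, with BSA as the vehicle or with 0.5 mM palmitic acid bound to BSA (PA). Poly(A) RNA of 3 libraries per group was sequenced, 18 in all. Since nothing states whether the 3 libraries of a group came from separate cultures, p-values measure the spread between these libraries, which may be technical.

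The respiratory chain sits in the inner mitochondrial membrane. Complex I oxidises NADH and complex II oxidises succinate, both passing electrons through ubiquinone to complex III, then by cytochrome c to complex IV, where oxygen is reduced. Complexes I, III and IV pump protons, and complex V, the ATP synthase, uses the proton gradient to make ATP. Most subunits are encoded in the nucleus and a small set in mitochondrial DNA, so that each complex, apart from complex II, needs products of both genomes. Complex IV also has subunits in alternative isoforms, and striated muscle fibres express Cox6a2, Cox7a1 and Cox8b where most tissues use Cox6a1, Cox7a2 and Cox8a.

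Library totals ran from 13041979 to 28496727 counts. The library of siNtc BSA replicate 1 was the shallowest and its counts differed more from its group's other libraries (chi-square per degree of freedom 30.7 and 17.8) than those differed from each other (4.62), so results that rest on it are also given without it. In siErk3 PA replicate 1 stood apart (26.9 and 15.2, against 4.97 between the others), as did replicate 2 in siMk5 PA (21.6 and 50.4, against 13.9), which held the largest value. Leaving each of these out of its own comparison of PA with BSA gave 6 called members in siErk3 and 6 in siMk5, as with all libraries. Ribosomal 18S RNA took up to 12.9% of the counts, with 8.39% to 12.9% in siMk5 BSA. The chi-square included 18S RNA, whose share was the lowest of its group in each library that stood apart. It was 2.56% in siNtc BSA replicate 1, against 7.17% and 5.64% in the others. In siErk3 PA it was 3.74% in replicate 1 against 5.87% and 6.77%, and in siMk5 PA 1.71% in replicate 2 against 4.34% and 6.69%. The part of 18S RNA in the chi-square was not tested. Mapk6 stood at 135, 129 and 133 CPM (counts scaled to library size) in siNtc BSA and at 56.6, 60.4 and 55.2 CPM in siErk3 BSA. With PA it was at 215, 236 and 244 CPM in siNtc and at 131, 119 and 109 CPM in siErk3, and it fell in both media (log2 fold change -1.21 and -0.95, adjusted p = 1.77e-14 and 1.21e-12). Mapkapk5 was low throughout, at 2.53, 2.54 and 2.32 CPM in siNtc BSA against 1.18, 2.01 and 1.70 CPM in siMk5 BSA. With PA its levels were 2.52, 3.92 and 3.28 CPM in siNtc against 2.43, 2.33 and 2.17 CPM in siMk5. Neither difference of Mapkapk5 passed the test (log2 fold change -0.61 and -0.48, adjusted p = 0.469 in both media), although the groups did not overlap in either, so the silencing of Mk5 was not established from these counts. The paper also reports that the fall of Mk5 mRNA missed its threshold, and it gives Western blots of the proteins as evidence of silencing. All 12 myotube markers, among them Myog, Ckm and Acta1, were detected, and summed to between 10500 and 13930 CPM per library.

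Levels were compared between genes per kilobase of exon, in siNtc BSA. The median level of the members was 37.1 CPM per kb, against 4.17 CPM per kb over 14994 protein-coding genes tested. By complex the medians were 35.5 CPM per kb for complex I, 38.05 for complex II, 59.7 for complex III, 50.5 for complex IV and 49.3 for complex V. The 8 assembly factors of complex I had a median of 4.75 CPM per kb and all lay between 2.98 (Ndufaf6) and 10.5 CPM per kb (Ndufaf1). The lower and upper quartiles of the members were 20.7 and 44.4 CPM per kb in complex I, 32.8 and 49.1 in complex II, 35.8 and 81.7 in complex III, 12.4 and 101 in complex IV, and 28.4 and 88.9 in complex V, so that the complexes overlapped. Without division by length the medians were 54.7, 93.9, 72.1, 80.7 and 100.4 CPM for complexes I to V, in another order. In complex I the lowest level was that of Ndufb2, an accessory subunit, with 1.65 ± 0.0464 CPM per kb (SD, n = 3). Sdhd, a membrane anchor of complex II, had 66.8 ± 3.73 CPM per kb, and Sdhc, the other anchor, had 32.5 ± 0.456 (SD, n = 3). For complex III the ends were Uqcr11 with 110 ± 11.1 CPM per kb and Uqcrc1, a core protein, with 30.3 ± 2.06 (SD, n = 3). Complex V was led by Atp5f1b, the catalytic beta subunit, with 236 ± 4.66 CPM per kb, and its lowest member was Atp5mg with 13.3 ± 0.684 (SD, n = 3). Complex IV spanned the widest range, from 147 ± 10.8 CPM per kb for Cox6b1 down to Cox6b2, Cox7b2 and Ndufa4l2, which were close to 0. Cox6b2 and Cox7b2 had 11 counts each over the 18 libraries. Lengths here are those of all annotated exons merged, 5628 bases for Ndufb2 for example, and a gene whose long transcripts are little used appears lower than it is. Cox5b-ps, a near-identical copy of Cox5b that is annotated as protein-coding, can exchange reads with it, so both are uncertain.

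**Figure D1:**
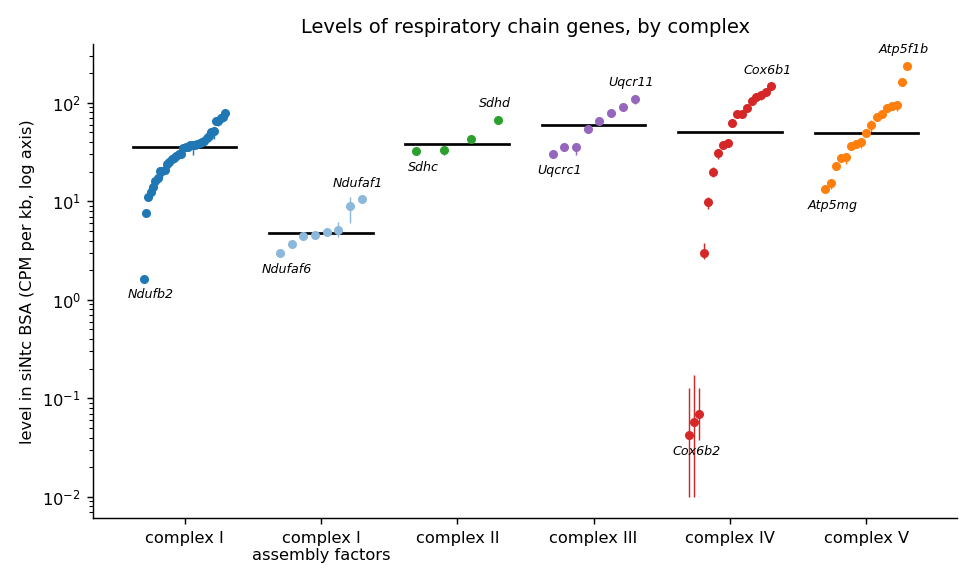
Level of the members in siNtc BSA (CPM per kilobase of exon, log axis) by complex, with the mean of 3 libraries as a point, the lowest and highest library as a bar, and the median of the complex as a black line. Bars that reach the bottom of the axis stand for a library at 0. The assembly factors of complex I sit at 10.5 CPM per kb or lower, and genes at the ends of the complexes are named.

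Whether silencing of Erk3 or Mk5 altered the respiratory chain transcripts was asked separately in BSA and in PA. A gene was called changed when its adjusted p was under 0.05 and its fold change over 1.3. In siErk3 against siNtc in BSA, 1 of 94 members was called, Cox8b, which was lower, where 0.785% of all genes tested were called and 0.198% were called lower. With siMk5 in BSA 0 of 94 members were called, against 0.0643% of all genes. Under PA no member was called with siErk3 (0.556% of all genes) and none with siMk5 (0.547% of all genes). DESeq2 gave the same counts, namely 1, 0, 0 and 0. Unadjusted p-values under 0.05 were found for 9, 4, 5 and 6 members in these 4 comparisons, in the order siErk3 and siMk5 in BSA, then siErk3 and siMk5 in PA, and for 10.6%, 6.89%, 8.28% and 6.79% of all genes. The smallest adjusted p where no member was called belonged to Ndufs4, an accessory subunit of complex I, with siMk5 in BSA (log2 fold change -0.23 ± 0.054 SE, adjusted p = 0.113). Its levels were 66.1, 64.0 and 63.8 CPM in siNtc and 54.6, 57.5 and 53.5 CPM in siMk5, so that the groups did not overlap. With siErk3 in PA it was Cox7a2l (log2 fold change 0.11 ± 0.045 SE, adjusted p = 0.452), and with siMk5 in PA it was Uqcrfs1, the Rieske iron-sulfur protein of complex III (0.12 ± 0.046 SE, adjusted p = 0.469).

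The differences after silencing were small where counts allowed a close estimate. Of the 94 members, 86 had at least 3000 counts in total, with a median SE of 0.052 on the log2 scale in each of these comparisons. Among them 84 of 86 members changed by less than 10% with siErk3 in BSA, 82 with siMk5 in BSA, 84 with siErk3 in PA and 84 with siMk5 in PA. The median log2 fold change over the 94 members was -0.01, -0.03, 0.02 and 0.02 in the same order, against 0.019, 0.014, -0.004 and 0.002 over all genes tested. By complex the medians stayed between -0.06 and 0.05 in all 4 comparisons. Summed over the 37 subunits of complex I, the level was 2032, 2169 and 2171 CPM in siNtc BSA, 2106, 2094 and 2154 in siErk3 BSA, and 2050, 2128 and 2090 in siMk5 BSA. These sums overlapped between the 3 groups. Complex IV summed to 1173, 1235 and 1206 CPM in siNtc BSA, 1178, 1171 and 1186 in siErk3 BSA, and 1154, 1197 and 1171 in siMk5 BSA, which again overlapped. The siErk3 and siMk5 comparisons in one medium share their siNtc libraries, so likeness between them is no independent evidence.

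**Figure D2:**
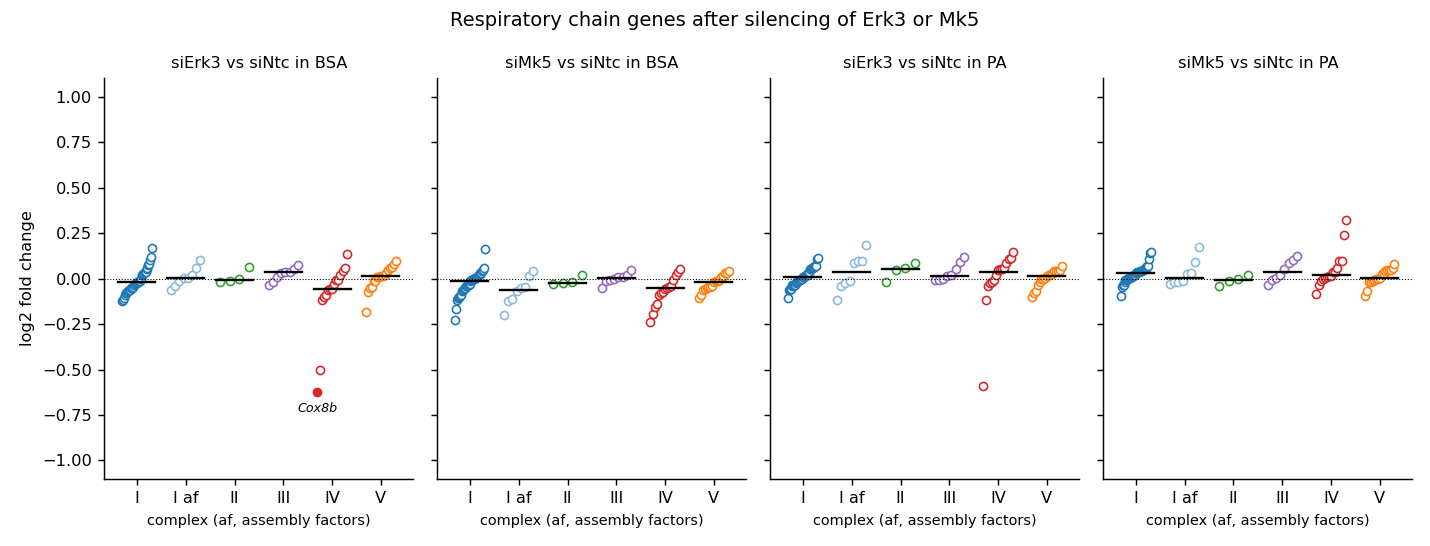
Log2 fold change of the members after silencing of Erk3 or Mk5 against siNtc, in BSA and in PA, by complex, where black lines are the medians of the complexes and a filled point is a called gene. Cox6b2, Cox7b2 and Ndufa4l2, with 11, 11 and 115 counts in total, are left out of the points, and Cox8b with siErk3 in BSA is the only filled point.

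Cox8b encodes the striated muscle isoform of subunit 8 of complex IV (chr7:140478858-140480359 on the minus strand of GRCm39). Its levels were 6.32, 7.96 and 7.38 CPM in siNtc BSA and 4.73, 4.60 and 4.87 CPM in siErk3 BSA. Every siErk3 library thus lay below every siNtc library (log2 fold change -0.63 ± 0.124 SE, adjusted p = 0.00377). The summed level of the myotube markers moved the other way with siErk3, with 11650 to 12300 CPM in siNtc BSA and 12540 to 13930 CPM in siErk3 BSA. In PA the sums were 10500 to 10680 CPM in siNtc and 11270 to 11980 CPM in siErk3. Of the 12 markers Myh3 and Myh8, myosins of developing muscle, were called higher with siErk3 in BSA (log2 fold change 0.39 and 0.56, adjusted p = 1.44e-05 and 1.25e-07) and Myh8 in PA, and none was called lower. Not all 12 rose, as Tnnt3, Myog, Tnnc2 and Mymk had lower means in siErk3 BSA than in siNtc BSA. The part of these marker differences in the level of Cox8b was not tested. In siMk5 BSA Cox8b was at 5.50, 7.498 and 5.68 CPM, which overlapped with siNtc. The call rested on siNtc BSA replicate 2, without which the adjusted p was 0.0791 at a log2 fold change of -0.55, and it was also lost with the 18S share as a covariate (-0.51, adjusted p = 0.192). In PA, Cox8b stood at 5.13, 5.34 and 4.90 CPM in siNtc, 5.26, 4.96 and 3.87 CPM in siErk3 and 6.34, 6.10 and 6.81 CPM in siMk5. No difference by siRNA passed the test there (adjusted p = 0.901 for siErk3 and 0.557 for siMk5), though the siMk5 libraries all lay above those of siNtc. Cox7a1, the muscle isoform of subunit 7a, was scarce, with 498 counts in total. It had 20, 48 and 30 counts in siNtc BSA, 31, 21 and 35 in siErk3 BSA, 29, 22 and 31 in siNtc PA and 21, 20 and 19 in siErk3 PA. After scaling to library size it was lower with siErk3 in both media without overlap of the libraries, and neither difference passed the test (log2 fold change -0.50 ± 0.242 SE and -0.59 ± 0.267 SE, adjusted p = 0.457 and 0.543).

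PA was compared with BSA within each siRNA to see how the respiratory chain transcripts responded to lipid load, and these 3 comparisons share no library. The share of members called was below that of all genes. In siNtc 7 of 94 members were called, against 30.6% of all genes. In siErk3 6 were called, against 32.1%, and in siMk5 6 were called, against 29.7%. In siNtc 4 members rose, where 15.5% of all genes rose, and 3 fell, where 15.1% fell. For siErk3 5 rose and 1 fell (all genes, 15.8% and 16.3%), and for siMk5 5 rose and 1 fell (all genes, 15.1% and 14.6%). Ndufaf4, Uqcrq, Cox6a2 and Ndufa4l2 rose and Ndufaf3 fell in each of the 3 comparisons, where 12% of all genes rose and 10.8% fell in each. The fold change threshold decided most of this. By adjusted p alone 9 members were higher and 29 lower in siNtc, where 23.9% and 21.2% of all genes passed. In siErk3 10 members were higher and 26 lower (all genes, 24.1% and 23%), and in siMk5 12 were higher and 21 lower (all genes, 23.4% and 20.9%). By that criterion 7 members were higher and 15 lower in all 3 comparisons, where 19.7% and 16.3% of all genes were. Without siNtc BSA replicate 1, 3 members rose and 4 fell in siNtc, where Ndufaf4 stood at 0.90, Ndufaf3 at -0.70 and Cox8b at -0.58 on the log2 scale. Irrespective of any test, 70 of 94 had the same sign in all 3, as had 71.8% of all genes. The median log2 fold change over the members was -0.09 in siNtc, -0.07 in siErk3 and -0.04 in siMk5, against -0.03, -0.01 and -0.01 over all genes tested.

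Other cell markers moved with PA. All 5 proliferating cell markers (Mki67, Top2a, Ccnb1, Cdk1 and Mcm5) fell with PA in each siRNA, and their summed level was 864 to 939 CPM in the BSA libraries against 366 to 483 CPM in the PA libraries. The 7 myoblast or reserve cell markers summed to between 278 and 325 CPM in BSA and between 183 and 220 CPM in PA, with 4 of 7 called lower in each siRNA. Myotube markers were also called lower, 7 of 12 in siNtc, 4 in siErk3 and 3 in siMk5, where 15.1%, 16.3% and 14.6% of all genes were. They had sums of 10980 to 13930 CPM in BSA and 10500 to 11980 CPM in PA. Not all of them fell, as Des was higher with PA without being called (log2 fold change 0.111, 0.135 and 0.157 in siNtc, siErk3 and siMk5). Fibroblast markers (Pdgfra, Dcn and Lum) summed to 69.2 to 89.0 CPM in BSA and 34.3 to 53.0 CPM in PA. Of these 3, Pdgfra and Dcn were called lower in siNtc and siErk3, and all 3 in siMk5. Of the adipocyte markers Plin1 was at 0 in every library, and the sum of all 3 was at most 0.140 CPM. The part of these shifts in the members' differences was not tested, and in bulk RNA fewer cells of a type and less RNA per cell cannot be told apart.

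**Figure D3:**
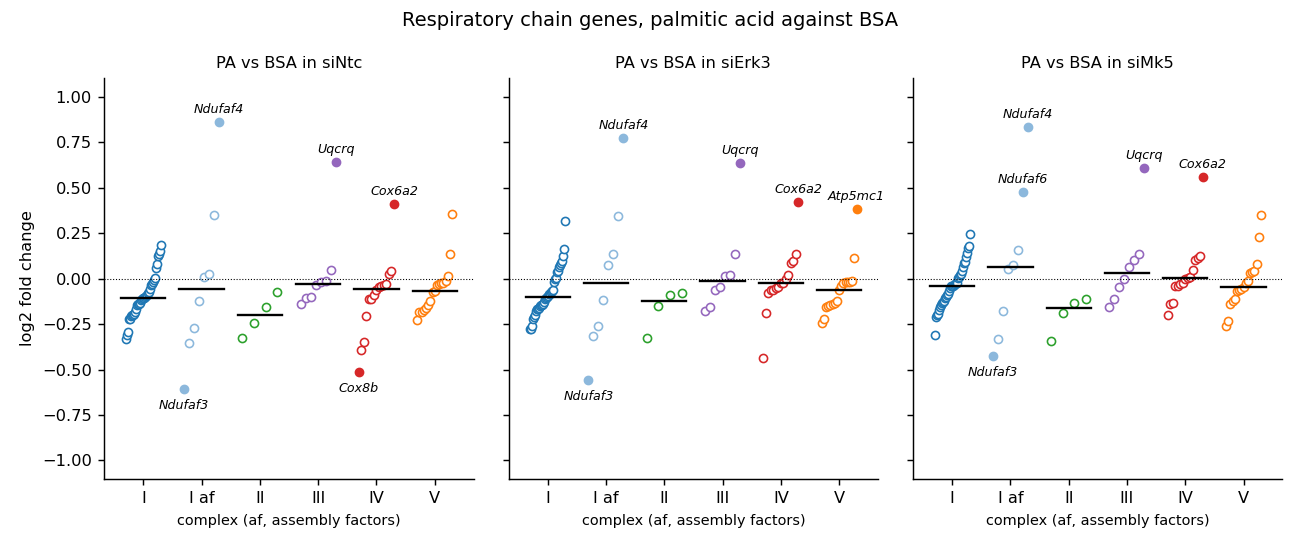
Log2 fold change of the members, PA against BSA, within siNtc, siErk3 and siMk5, by complex, where black lines are the medians of the complexes and filled points are called genes. Cox6b2, Cox7b2 and Ndufa4l2 are left out of the points. Ndufaf4, Uqcrq and Cox6a2 lie above the other members drawn in each panel, while complex II lies below 0 in all 3.

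In complex I, the subunits leaned downward with PA. Their median log2 fold change was -0.11 in siNtc, -0.10 in siErk3 and -0.04 in siMk5, with 30, 27 and 24 of 37 below 0. The median over all genes tested was also below 0 in each siRNA, as given above, and their share below 0 is not given here. The 7 core subunits, which carry the NADH site, the iron-sulfur clusters and the path to ubiquinone, were all below 0 in each siRNA, and 4, 5 and 3 of them passed by adjusted p alone, each lower. Summed complex I level was 1970, 1929 and 1927 CPM in siNtc PA, 1931, 1993 and 1979 in siErk3 PA and 1962, 1977 and 2000 in siMk5 PA. All 9 were below the lowest BSA library, and the means were lower by 8.56%, 7.12% and 5.24% in siNtc, siErk3 and siMk5, given here as a description. Ndufa1, a small membrane subunit chosen after its values were seen, was higher, with log2 fold changes of 0.18, 0.32 and 0.24 (adjusted p = 0.0081, 1.53e-05 and 0.000625), and stayed under the fold threshold.

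The assembly factors of complex I moved in both directions. Ndufaf4 (chr4:24898083-24905001, plus strand) acts early in the building of complex I. In BSA it stood at 18.6, 16.6 and 16.7 CPM in siNtc, 17.2, 18.5 and 18.1 in siErk3 and 17.4, 16.4 and 18.3 in siMk5. In PA it was at 30.5, 30.9 and 32.2 CPM in siNtc, 31.7, 31.0 and 29.1 in siErk3 and 29.4, 31.8 and 31.5 in siMk5. The lowest PA library thus exceeded the highest BSA library in each siRNA, at log2 fold changes of 0.86 ± 0.067, 0.78 ± 0.064 and 0.83 ± 0.066 SE (adjusted p = 2.65e-12, 7.91e-12 and 4.70e-12). Ndufaf3 (chr9:108442736-108444633, minus strand), which is known to act with Ndufaf4, fell. Its BSA levels were 7.80, 9.09 and 11.1 CPM in siNtc, 8.54, 8.98 and 9.55 in siErk3 and 9.03, 7.25 and 8.31 in siMk5. Its PA levels were 6.39, 5.79 and 6.42 CPM in siNtc, 5.21, 6.33 and 6.90 in siErk3 and 5.57, 6.20 and 6.61 in siMk5. The media did not overlap within any siRNA (log2 fold change -0.61 ± 0.121, -0.56 ± 0.116 and -0.43 ± 0.123 SE, adjusted p = 9.57e-05, 0.000152 and 0.00488). The call in siMk5 was lost without siMk5 BSA replicate 1 (-0.36) or siMk5 PA replicate 1 (-0.36), and with the 18S share as a covariate (-0.33, adjusted p = 0.139). Ndufaf6 was called higher only in siMk5 (log2 fold change 0.48 ± 0.131 SE, adjusted p = 0.00313), a call that was lost at 0.34 without siMk5 PA replicate 3. It passed by adjusted p alone in siNtc and siErk3 (0.35 and 0.34), and the interaction of siMk5 with PA did not pass for it (adjusted p = 0.914).

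**Figure D4:**
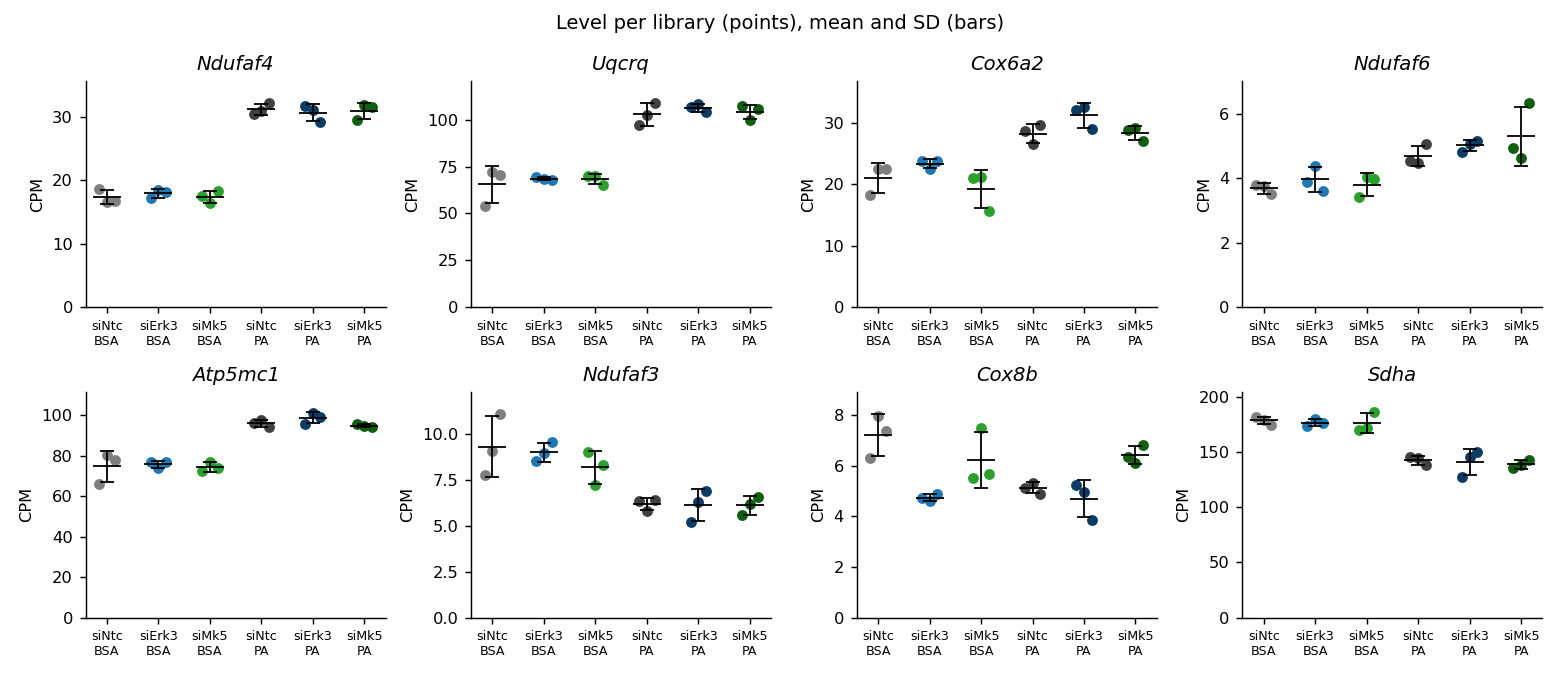
Level of 8 members in every library (CPM, axes from 0), with the mean and SD of each group of 3 as bars. Ndufaf4, Uqcrq, Cox6a2, Ndufaf6 and Atp5mc1 are higher in the PA groups, Ndufaf3 and Sdha are lower, and Cox8b is highest in siNtc BSA and lowest in the siErk3 groups.

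All 4 subunits of complex II were below 0 with PA in each siRNA, at medians of -0.20, -0.12 and -0.16, and none reached the fold threshold. The largest difference was that of Sdha, the flavoprotein that oxidises succinate, named here after its values were seen. Sdhc passed by adjusted p alone in all 3 siRNAs, Sdhd in siNtc and siMk5, and Sdhb in none. Sdha stood at 182, 179 and 175 CPM in siNtc BSA and at 145, 144 and 138 CPM in siNtc PA (log2 fold change -0.32 ± 0.051 SE, adjusted p = 2.78e-06). It was lower in siErk3 (-0.33, adjusted p = 1.91e-06) and siMk5 (-0.34, adjusted p = 1.00e-06) too, without overlap of the libraries. The summed level of complex II was 443, 438 and 438 CPM in siNtc BSA against 377, 375 and 373 CPM in siNtc PA, a lower mean by 14.7%. In siErk3 and siMk5 the sums were lower by 12.6% and 14.4%, and the media did not overlap. No other complex had as large a fall of its sum in any of the siRNAs.

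Complex III had a single member called. Uqcrq (chr11:53318749-53321658, minus strand), a small accessory subunit, rose in each siRNA. In BSA it stood at 54.1, 72.1 and 70.5 CPM in siNtc, 69.5, 68.4 and 67.8 in siErk3 and 69.9, 69.8 and 65.3 in siMk5. With PA it was at 97.0, 103 and 109 CPM in siNtc, 107, 108 and 104 in siErk3 and 107, 100.1 and 106 in siMk5. The low value in siNtc BSA is that of replicate 1, and the media were far apart in each siRNA (log2 fold change 0.64 ± 0.066, 0.64 ± 0.065 and 0.61 ± 0.066 SE, adjusted p = 1.32e-09, 7.64e-10 and 3.04e-09). Without that library the log2 fold change in siNtc was 0.53. Of the other 7 subunits, Uqcrc1 was lower by adjusted p alone in all 3 siRNAs (log2 fold change -0.14, -0.16 and -0.16) and Uqcrh, named after its values were seen, in siErk3 (-0.18). The summed level of complex III was the only one with a higher mean in PA in all 3 siRNAs, by 1.70%, 1.74% and 3.83%. Its libraries overlapped between media in siNtc and siErk3, though not in siMk5. In siNtc the sums were 610, 670 and 658 CPM in BSA and 656, 650 and 665 CPM in PA. That higher mean rested on siNtc BSA replicate 1. The mean of Uqcrq went from 65.6 to 103 CPM in siNtc, and that of the sum from 646 to 657 CPM. In each siRNA Uqcrq rose by more than the sum, so the other 7 subunits together were not higher.

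In complex IV the called members were 2 muscle isoforms, Cox6a2 and Cox8b, and Ndufa4l2. Cox6a2 (chr7:127804607-127805559, minus strand) is the striated muscle isoform of subunit 6a. It stood at 18.3, 22.5 and 22.6 CPM in siNtc BSA, 23.8, 22.6 and 23.8 in siErk3 BSA and 20.98, 21.2 and 15.7 in siMk5 BSA. With PA the levels were 28.7, 26.5 and 29.7 CPM in siNtc, 32.2, 32.6 and 29.0 in siErk3 and 28.9, 29.3 and 27.1 in siMk5. All 9 PA libraries lay above all 9 BSA libraries (log2 fold change 0.41 ± 0.087, 0.42 ± 0.082 and 0.56 ± 0.087 SE, adjusted p = 0.000211, 6.22e-05 and 2.82e-06). In siNtc it passed by adjusted p but dropped under the fold threshold without siNtc BSA replicate 1 (0.33) or siNtc PA replicate 3 (0.37), and in siErk3 with the 18S share as a covariate (0.37). Ndufa4l2, a relative of the complex IV subunit Ndufa4 that is known to be induced by low oxygen, was barely detected. It had 2, 1 and 1 counts in siNtc BSA, 1, 5 and 1 in siErk3 BSA and 1, 1 and 3 in siMk5 BSA. With PA it had 12, 11 and 9 counts in siNtc, 16, 13 and 5 in siErk3 and 12, 11 and 10 in siMk5. It passed the test in each siRNA (adjusted p = 0.000516, 0.000853 and 0.00055), and its fitted log2 fold changes of 2.78, 2.30 and 2.62 depend on the prior count and on single libraries. Leaving out 1 library moved them to between 2.48 and 3.34 in siNtc, the highest without siNtc BSA replicate 1, between 1.86 and 3.44 in siErk3, the highest without siErk3 BSA replicate 2, and between 2.28 and 3.32 in siMk5, the highest without siMk5 BSA replicate 3. Even with PA it made up at most 0.599% of Ndufa4l2 plus Ndufa4 per length. Cox8b fell with PA in siNtc (log2 fold change -0.51 ± 0.126 SE, adjusted p = 0.00107) and was not separated in siErk3 (0.00 ± 0.129 SE) or siMk5 (0.05 ± 0.124 SE). These differences were not shown to differ from each other (interaction with siErk3 0.51 ± 0.180 SE, adjusted p = 0.584, and with siMk5 0.56 ± 0.176 SE, adjusted p = 0.339). The fall of Cox8b with PA in siNtc and that with siErk3 in BSA share the 3 siNtc BSA libraries. The summed level of complex IV was lower by 3.04% in siNtc and higher by 0.715% and 0.556% in siErk3 and siMk5, with overlapping libraries.

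Complex V had 1 called member, in 1 of the siRNAs. Atp5mc1 (chr11:95959678-95966496, minus strand) encodes the c subunit that forms the rotating ring, as Atp5mc2 and Atp5mc3 also do. It went from 76.8, 73.8 and 76.9 CPM in siErk3 BSA to 95.8, 101 and 99.3 CPM in siErk3 PA (log2 fold change 0.38 ± 0.052 SE, adjusted p = 2.67e-07). In siNtc it went from 65.9, 80.4 and 77.7 CPM to 96.2, 97.7 and 94.1 CPM, and in siMk5 from 72.3, 76.8 and 73.8 CPM to 95.7, 94.8 and 94.0 CPM. These gave log2 fold changes of 0.36 and 0.35, under the fold threshold, with adjusted p = 1.39e-06 and 1.56e-06. The call in siErk3 was lost at 0.35 to 0.38 without any of siErk3 BSA replicate 1, siErk3 BSA replicate 2, siErk3 PA replicate 2 and siErk3 PA replicate 3. Atp5mc3, the paralog for the same ring protein, was lower by adjusted p alone in all 3 siRNAs (log2 fold change -0.17, -0.14 and -0.14). So were Atp5f1a, the alpha subunit of the catalytic head (-0.19, -0.22 and -0.23), Atp5f1c, the central stalk (-0.18, -0.15 and -0.11), the peripheral stalk subunit Atp5po (-0.15, -0.25 and -0.26) and the inhibitor Atp5if1 (-0.23, -0.20 and -0.13), all named, like Atp5mc3, after their values were seen. The summed level of complex V was lower by 5.00%, 4.97% and 3.81%.

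Muscle isoforms were set against their ubiquitous partners within each library, which needs no scaling between libraries. On the scale of levels per length, Cox6a2 made up 20.4% ± 0.584 of Cox6a2 plus Cox6a1 in siNtc BSA, Cox8b 13.4% ± 1.303 of the subunit 8 pair, and Cox7a1 3.74% ± 0.588 of the subunit 7a pair (SD, n = 3). Cox6a2 was at 26.3% ± 1.48 in siNtc PA, 28.6% ± 2.12 in siErk3 PA and 27.6% ± 0.850 in siMk5 PA, against 22.1% ± 0.832 in siErk3 BSA and 18.4% ± 3.18 in siMk5 BSA (SD, n = 3). The log2 ratio of counts of Cox6a2 to Cox6a1 was thus higher with PA by 0.48 in siNtc, by 0.50 in siErk3 and by 0.77 in siMk5, without overlap of the libraries. In siMk5 the BSA library of replicate 3 was lowest, at 14.8%. Cox8b went the other way in siNtc, where its share was 10.6% ± 0.620 with PA (difference of the log2 ratio -0.37), and its share was lowest in siErk3, at 8.86% ± 0.290 in BSA and 9.16% ± 1.31 in PA (SD, n = 3). Cox8b over Cox8a differed by -0.66 between siErk3 and siNtc in BSA and by 0.32 between siMk5 and siNtc in PA, without overlap. Cox6a2 over Cox6a1 differed the other way, by 0.15, between siErk3 and siNtc in BSA without overlap. Cox7a1 over Cox7a2 differed by -0.43 and -0.64 between siErk3 and siNtc in BSA and in PA, also without overlap. The siMk5 libraries in BSA overlapped those of siNtc for all 3 pairs. Over 35 tests (5 pairs, 7 comparisons) the exact two-sided permutation test gave p = 0.1 at the smallest, which is the lowest value that 3 against 3 libraries can give, and adjusted p = 0.292, so none could pass 0.05. By the overlap of libraries alone, with no test passed, Cox6a2 over Cox6a1 was higher with PA in each siRNA. Cox8b over Cox8a was lower in siNtc and overlapped between media in siErk3 and siMk5, and Cox7a1 over Cox7a2 overlapped in all 3.

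**Figure D5:**
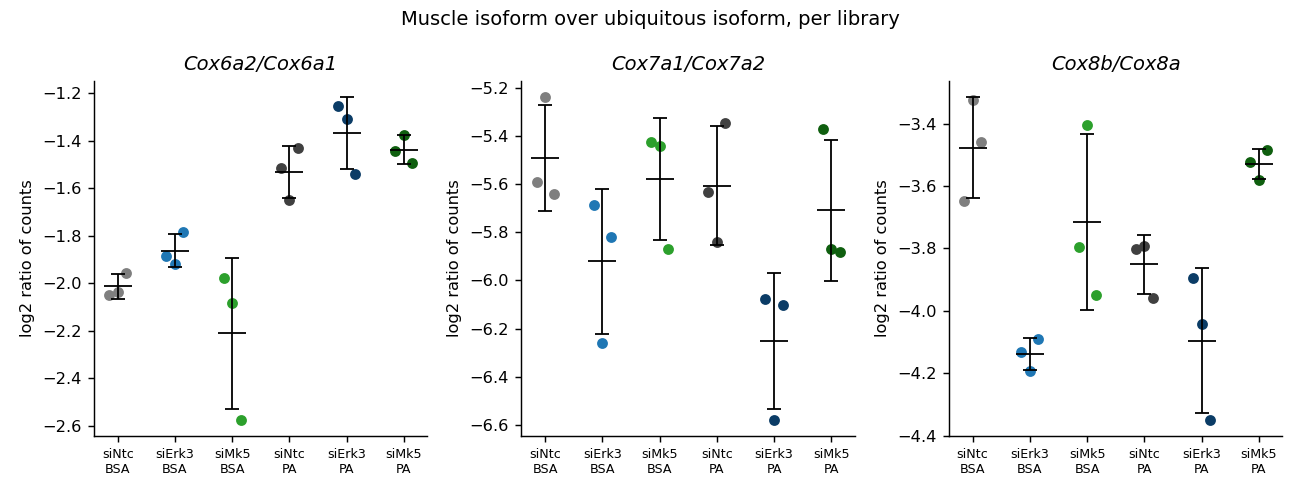
Log2 ratio of counts of the muscle isoform to the ubiquitous isoform in every library for subunits 6a, 7a and 8 of complex IV, with the mean and SD of each group of 3. Cox6a2 over Cox6a1 is higher in all 9 PA libraries than in the 9 BSA libraries, while Cox8b over Cox8a has its highest means in siNtc BSA and siMk5 PA and its lowest in siErk3.

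Promoters are shown for the pair of complex I assembly factors that moved in opposite directions and for the pair of subunit 8 isoforms. Of the 94 members 76 had a window from 250 bases before to 50 bases after the gene start in the RefSeq table (GRCm38.p6). Capitals mark the letters GCGCATGCG of nuclear respiratory factor 1 (NRF1) in Ndufaf4 (chr4:24897833-24898132, plus strand), which read on both strands with overlap, CAGCTG of a myogenic E-box in Cox8b (chr7:140900397-140900696, minus strand) and ACTTCCGG of ETS factors such as GABP in Cox8a (chr19:7217567-7217866, minus strand). Ndufaf3 (chr9:108567387-108567686, minus strand) held none of the letters searched. All are written from 5′ to 3′ on the strand of the gene.
Ndufaf4: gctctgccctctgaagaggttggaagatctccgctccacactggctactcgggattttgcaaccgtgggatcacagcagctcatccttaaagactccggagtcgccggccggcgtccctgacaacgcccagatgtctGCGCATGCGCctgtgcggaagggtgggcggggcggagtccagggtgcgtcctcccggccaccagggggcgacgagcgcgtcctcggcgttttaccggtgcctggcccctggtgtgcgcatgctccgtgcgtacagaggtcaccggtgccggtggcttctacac
Ndufaf3: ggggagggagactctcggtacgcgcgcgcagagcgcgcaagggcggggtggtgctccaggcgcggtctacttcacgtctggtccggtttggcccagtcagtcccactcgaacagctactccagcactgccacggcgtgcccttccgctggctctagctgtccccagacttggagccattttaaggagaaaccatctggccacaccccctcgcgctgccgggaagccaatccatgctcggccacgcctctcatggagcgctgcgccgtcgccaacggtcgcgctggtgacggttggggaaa
Cox8b: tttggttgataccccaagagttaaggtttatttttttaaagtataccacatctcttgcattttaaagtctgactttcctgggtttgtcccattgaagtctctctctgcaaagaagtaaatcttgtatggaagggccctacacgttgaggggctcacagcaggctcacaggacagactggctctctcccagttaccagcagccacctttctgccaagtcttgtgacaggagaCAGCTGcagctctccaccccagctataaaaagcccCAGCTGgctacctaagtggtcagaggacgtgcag
Cox8a: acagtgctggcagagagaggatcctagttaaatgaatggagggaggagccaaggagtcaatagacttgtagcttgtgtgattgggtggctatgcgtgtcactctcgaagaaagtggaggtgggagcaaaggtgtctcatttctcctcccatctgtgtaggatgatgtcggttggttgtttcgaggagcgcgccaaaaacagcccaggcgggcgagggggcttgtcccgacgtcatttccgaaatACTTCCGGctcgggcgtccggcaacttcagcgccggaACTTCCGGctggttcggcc

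The NRF1 letters, searched on both strands, were found in 12.35% of 81 windows of members, against 1.75% of 32851 windows of all genes. They were in 10 member genes, among them Ndufaf4 and Cox6a1. ACTTCCGG was found in 5 member windows (6.17%, against 3.89% of all). TCAAGGTCA of estrogen-related receptors was in only 2 (2.47%, against 0.423%), and AAGATGGCG of YY1 in 8 (9.88%, against 1.40%). The myogenic CAGCTG, added after the data were seen, was in 6 member windows (7.41%, against 16.3% of all). A match to such letters is a description of the window and not a site that was shown to be bound.

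Genes around the chain were read with PA from lists outside the members, and those named in what follows were chosen after their values were seen. Of 42 further assembly factors 6 rose and 3 fell in siNtc, 7 and 1 in siErk3 and 7 and 2 in siMk5. Of all genes 15.5%, 15.8% and 15.1% rose and 15.1%, 16.3% and 14.6% fell in siNtc, siErk3 and siMk5. Sco2, which delivers copper to complex IV, rose from 1.81 ± 0.173 to 3.84 ± 0.131 CPM in siNtc (SD, n = 3), with log2 fold changes of 1.09, 1.51 and 1.32 in siNtc, siErk3 and siMk5. Tmem126a, an assembly factor of complex I, rose from 18.8 ± 0.997 to 36.0 ± 1.296 CPM in siNtc (SD, n = 3; log2 fold change 0.94, and 0.91 and 1.01 in the others). Cycs, the electron carrier cytochrome c, rose with PA (0.43, 0.51 and 0.48), whereas Cyc1, the cytochrome of complex III, had differences of -0.02, -0.10 and -0.05 that did not pass. Of 16 regulators 4 rose and 2 fell in siNtc, 3 and 1 in siErk3 and 4 and 2 in siMk5, to be read against the same shares of all genes. Pprc1, Ppard and Tfam, the latter a factor that packs and transcribes mitochondrial DNA, rose in all 3 (Tfam by 0.53, 0.53 and 0.51 on the log2 scale), and Esrrb, at group means of 1.89 CPM or less, fell in all 3. Ppargc1a, under 1 CPM, was called lower in siMk5 (-1.04, adjusted p = 0.0179). None of the 13 mitochondrially encoded subunits was called in any of the 3. The 94 genes with symbols of cytosolic ribosomal proteins, among which the S6 kinases fall by their symbols, had a median log2 fold change of 0.23, 0.25 and 0.24 with PA, and the 77 of the mitochondrial ribosome 0.07, 0.08 and 0.09. In silencing of Erk3 or Mk5, 0 of the 42 assembly factors, 0 of the 16 regulators and 0 of the 13 mitochondrially encoded subunits were called in either medium by edgeR, with between 0 and 4 members of each list at an unadjusted p under 0.05.

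Whether PA acted differently once Erk3 or Mk5 was silenced was tested as an interaction. No member was called for siErk3, where 0.0367% of all genes were called, nor for siMk5, where 0.211% were called, and DESeq2 also called 0 members in each. Unadjusted p-values under 0.05 were found for 2 and 5 members, and for 6.1% and 7.43% of all genes. The smallest adjusted p belonged in both to Cox8b, as given above. Among the 86 members with at least 3000 counts the interaction lay between -0.14 and 0.20 on the log2 scale for siErk3 and between -0.14 and 0.23 for siMk5, with a median SE of 0.073 and 0.074.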

How the data were processed

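RNA of 18 libraries of C2C12 myotubes was measured as gene counts. Per the methods and the file headers, the authors trimmed the reads, aligned them with STAR and counted them with featureCounts 2.0.0 by strand, with a minimum mapping quality of 3, against the Ensembl annotation of GRCm39, while the labels name mm10. The deposited values used here are raw counts per gene and the exon length of each gene. The authors also deposited a table named as log2 FPKM plus 1, which was read only as a check of the counts. Its values were log2 of the counts scaled by 1 factor per library, plus 1, without division by gene length. The labels further name Trim Galore, Salmon, SAMtools and DESeq2.

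A minimum of 10 counts over the 18 libraries was set for each gene, and symbols came from GENCODE. Counts were scaled by TMM and fitted over all 18 libraries with 1 coefficient per group by edgeR 4.0.16 (R 4.3.3, quasi-likelihood test, Benjamini-Hochberg adjustment over 21772 genes). A call required an adjusted p under 0.05 and a fold change over 1.3. CPM are TMM-scaled. Isoform ratios were log2 of counts plus 0.5, compared with the exact permutation test in scipy 1.17.1. The fit was tested on simulated data with 200 genes changed by 1 on the log2 scale in siErk3 against siNtc in BSA. It recovered 100% of them with 4 false calls. These genes were drawn from those with a mean over 100 counts per library, so recovery at lower counts or smaller differences was not tested. DESeq2 1.42.0, its size factors, 2 other filters, the fold threshold, the libraries in the fit, the 18S share as a covariate, a replicate block and each library left out were tried as alternatives. Named genes were both members of each isoform pair, every called member, the member with the smallest adjusted p where none was called, the highest and the lowest per length of each complex, and the targeted genes. Since counting used strand, reads of antisense neighbours that overlap Ndufaf3, Cox6a2 and Ndufa4l2 were kept apart. The values of 1 member are not reported here or drawn, though it counts in sums, medians and numbers of calls. The members, lists and motifs were chosen with earlier results of these data known, so no list is independent evidence. Precision for each gene follows its counts, and totals ran from 13041979 to 28496727 per library. Among 18 matching genes that are not protein-coding, mostly pseudogenes, 3857 counts were found, against 2998155 for the members.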

Additional observations from a re-analysis of the deposited data

How the results depend on the processing

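The number of called members kept within 1.5 times its main value under DESeq2, DESeq2 size factors, both filters and a fit of the compared groups only, in all 9 comparisons. Without the fold threshold the PA comparisons gave 38 members in siNtc, 36 in siErk3 and 33 in siMk5 in place of 7, 6 and 6. For siErk3 in BSA the count fell from 1 to 0 with the 18S share as a covariate. Leaving out 1 library at a time gave 0 to 1 members for siErk3 in BSA, where 0 came without siNtc BSA replicate 2, and 6 to 8, 5 to 6 and 5 to 7 for PA in siNtc, siErk3 and siMk5. Replicate numbers were shared between groups. Over 10553 genes the 45 same-number pairs had correlations of deviations from -0.607 to 0.516 (mean -0.007), with 9 above 0.1. In PA, replicates 1 and 3 of siErk3 and siMk5 correlated with each other at 0.516 and 0.432. With those of siNtc PA they correlated at -0.607 to -0.408. Pairs of different numbers were not compared, so whether the numbers pair the libraries could not be decided. Blocking on the replicate number gave counts of 1, 0, 0 and 0 for the siRNA comparisons, 7, 6 and 6 for PA and 0 for both interactions. With the 18S covariate PA gave 3 higher and 2 lower members in siErk3 and 6 higher and 0 lower in siMk5, against 5 and 1 in each. The median over members in siErk3 against siNtc in BSA ran from -0.029 to 0.024 over the alternatives. No called direction was reversed in any alternative. With 0.5 replaced by a pseudocount of 2, the difference of Ndufa4l2 over Ndufa4 with PA moved to 1.77 in siNtc and 1.73 in siMk5. Genes with few counts, Cox7a1 and Mapkapk5 among them, could not be separated at this depth unless they differed strongly.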
